A study of Rattus norvegicus with 12 samples.

Results

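Cilia and axoneme genes were followed on 12 arrays of rat dorsal striatum. The members were the genes whose name in the scanner files began with Dnah, Dnai, Dnal, Dynlrb, Tekt, Spag or Rsph, or with Ift or Bbs and a digit, together with Foxj1, Ak7, Enkur, Mlf1, Meig1, Rarres2, Spef2 and Hydin where the arrays held them. This gave 41 genes, represented by 65 of the 41012 probes, among 35608 gene names. No probe was named Rsph, Enkur, Meig1, Spef2 or Hydin. The rule reads gene names alone, though it was written with earlier results of these data known.

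All 12 male rats carried a lesion of the left substantia nigra pars compacta, made on that side only with 9 µg of 6-OHDA, a toxin that kills dopamine neurons, and each group held 3 animals with 1 array each. The 6-OHDA group received nothing further. HFS rats had high-frequency stimulation of the subthalamic nucleus over 5 days (130 Hz, 60 µA, pulse width 80 µs). DOPA rats were given the dopamine precursor L-DOPA at 25 mg/kg, along with benserazide at 12.5 mg/kg, in 2 injections per day for 19 days. The DOPA/HFS group received both, with stimulation in the last 5 days of L-DOPA. Per the methods only the stimulated groups carried an electrode, so electrode and current cannot be told apart, and animals with an incomplete lesion or a misplaced electrode had been excluded. The 12 arrays included none of unlesioned striatum. Punches of dorsal striatum were pooled for each animal. In such bulk tissue, fewer cells of a type and less RNA per cell cannot be told apart.

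A cilium is a microtubule rod, the axoneme, that grows from a centriole. Most neurons and glia bear a single short primary cilium that does not beat and serves signalling, whereas the ependymal cells that line the ventricles, next to the dorsal striatum, bear tufts of beating cilia. Beating requires axonemal dyneins, the motors that slide the microtubules, as well as tektins, radial spokes and the central pair, and their genes are switched on by the transcription factors Foxj1 and Rfx. Intraflagellar transport (Ift) proteins and the Bardet-Biedl (Bbs) complex carry cargo in both kinds of cilium.

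By these roles 22 members were counted as motile-cilium genes (axonemal dyneins, tektins, Spag6, Foxj1, Ak7 and Dynlrb2), 9 as ciliary-transport genes (Ift and Bbs) and 10 as others (Mlf1, Rarres2 and the other Spag genes). Of the 41 members, 32 had a probe well above the local background on a 0.4 share of the arrays or more and entered the test, beside 20408 genes in all. They were 15 of 22 motile-cilium genes, 9 of 9 ciliary-transport genes and 8 of 10 others. By role, 8 of 14 axonemal dyneins, 4 of 4 tektins, 4 of 4 Ift genes, 5 of 5 Bbs genes and Dynlrb2 passed. Those that did not pass were Dnah6, Dnah8, Dnah10, Dnah11, Dnahc3, Dnahc5, Spag4l, Spag6 and Spag11. The files keep Dnah11 apart from Dnahc11 and Dnah3 apart from Dnahc3, and Dnahc11 and Dnah3 passed under these names.

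Rfx factors bind X-boxes, in which GTTGCC and its reverse complement GGCAAC face each other across a short gap. Promoter sequence is given for the members in which a shorter inverted repeat, GTTGC facing GCAAC, was found. It is also given for others with GTTGCC or GGCAAC alone. RefSeq (build GRCr8) gave a single promoter, of 250 bases before to 50 after the start, for 30 of 40 members by current symbol. Dnah10 and Dnah11, outside the test, had 4 and 6 promoters and were not searched. A search made after these sequences had been seen looked on both strands for GTTGC and GCAAC separated by 0 to 4 bases. It found this inverted repeat in 0.487% of 33469 promoters, in 4 of the 12 promoters of tested motile-cilium genes, in 0 of 6 transport promoters and in 0 of 7 others. Dnah6, outside the test, held it too. Tekt2 and Dnai2 were among the sequences that led to the search, so 4 of 12 beside 0.487% is no test of the repeat. The lines below give the 80 bases before the start, 5′ to 3′ on the gene's strand, with the inverted repeat in capitals, for Tekt2 (chr5:143907725-143907804, minus strand), Dnai2 (chr10:100258942-100259021, plus), Tekt4 (chr10:14992204-14992283, plus), Dnah7 (chr9:62756616-62756695, minus) and Dnah6 (chr4:106842365-106842444, minus).
Tekt2: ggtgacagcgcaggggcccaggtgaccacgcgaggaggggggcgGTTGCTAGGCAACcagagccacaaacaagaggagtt
Dnai2: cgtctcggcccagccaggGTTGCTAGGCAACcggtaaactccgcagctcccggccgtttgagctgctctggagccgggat
Tekt4: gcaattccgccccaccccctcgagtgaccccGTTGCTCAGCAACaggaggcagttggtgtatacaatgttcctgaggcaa
Dnah7: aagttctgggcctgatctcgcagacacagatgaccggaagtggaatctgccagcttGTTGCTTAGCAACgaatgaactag
Dnah6: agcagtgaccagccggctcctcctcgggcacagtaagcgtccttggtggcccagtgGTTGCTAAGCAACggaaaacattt

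In all 5 the arms GTTGC and GCAAC were 3 bases apart. The repeat began 24 bases before the start in Dnah6 and Dnah7, 36 in Tekt2, 49 in Tekt4 and 62 in Dnai2. In Tekt2 and Dnai2 the repeat includes GGCAAC, while in Tekt4, Dnah7 and Dnah6 it includes neither GTTGCC nor GGCAAC. An arm of the X-box, GTTGCC or GGCAAC, stood in 12.2% of all promoters. It stood in 4 of 12 tested motile-cilium promoters, 4 of 6 transport promoters and 3 of 7 others, so it was not limited to genes of beating cilia. The next 4 sequences show such an arm in capitals in the motile gene Tekt1 (chr10:57479122-57479201, minus), in Mlf1 (chr2:153958411-153958490, plus, 180 to 101 bases before the start) and in the transport genes Ift88 (chr15:35688907-35688986, plus) and Bbs5 (chr3:74818560-74818639, plus).
Tekt1: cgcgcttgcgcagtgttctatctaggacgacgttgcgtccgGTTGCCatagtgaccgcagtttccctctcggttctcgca
Mlf1: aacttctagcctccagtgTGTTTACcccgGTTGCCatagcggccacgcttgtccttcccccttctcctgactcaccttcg
Ift88: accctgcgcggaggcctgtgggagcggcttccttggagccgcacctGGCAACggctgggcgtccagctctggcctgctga
Bbs5: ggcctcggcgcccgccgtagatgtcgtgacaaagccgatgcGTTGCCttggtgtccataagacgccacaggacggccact

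The first capitals of the Mlf1 sequence mark TGTTTAC, a forkhead motif, which Foxj1 and related factors bind. On either strand it stood in 3.78% of all promoters, in 2 of 12 tested motile-cilium promoters (Dnali1 and Tekt3), 0 of 6 transport promoters and 1 of 7 others. A stricter X-box, GTTNCC and GGNAAC separated by 0 to 3 bases, stood in 0.902% of all promoters and in 0 of these 12, 6 and 7. These are matches of letters, not sites shown to be bound.

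The tissue carried the markers of striatum. Of 9 markers of striatal projection neurons, 9 were well above background on 11 arrays and 8 on DOPA/HFS replicate 3, where the scanner software marked 4175 spots as outliers, against 2 to 25 on the others. Such spots were left out, so Dnah3, Tekt2 and Rarres2 have no value on that array and their DOPA/HFS values rest on 2 animals. Spots well above background made up 50.5% to 63.2% of an array, and no member's probe was saturated. The arrays sat on 3 slides, with all 4 groups on each slide but always at the same place, so place and treatment cannot be told apart.

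The motile-cilium genes varied from array to array far more than the transport genes, and most of them did so together. Their median SD of the log2 signal over the 12 arrays was 0.649, against 0.213 for the transport genes and 0.27 for all tested genes. Of the 15 motile-cilium genes, 12 lay above the 90th percentile of SD of all tested genes, as did 0 of 9 transport genes and 2 of 8 others, Mlf1 and Spag8. Dim genes vary more in general, and of these 12, Ak7, Dnah7 and Tekt3 lay below the 90th percentile of genes of like level. The 10 motile-cilium genes well above background on all 12 arrays had a median SD of 0.615, 8 of them lay above that percentile, and they differed by 1.61 to 5.04-fold between the lowest and the highest array, against 1.31 to 2.18-fold for the 9 transport genes. Within the groups the median SD of the motile-cilium genes was 0.629, close to that over all arrays. The spread is a description, with no test.

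**Figure D1:**
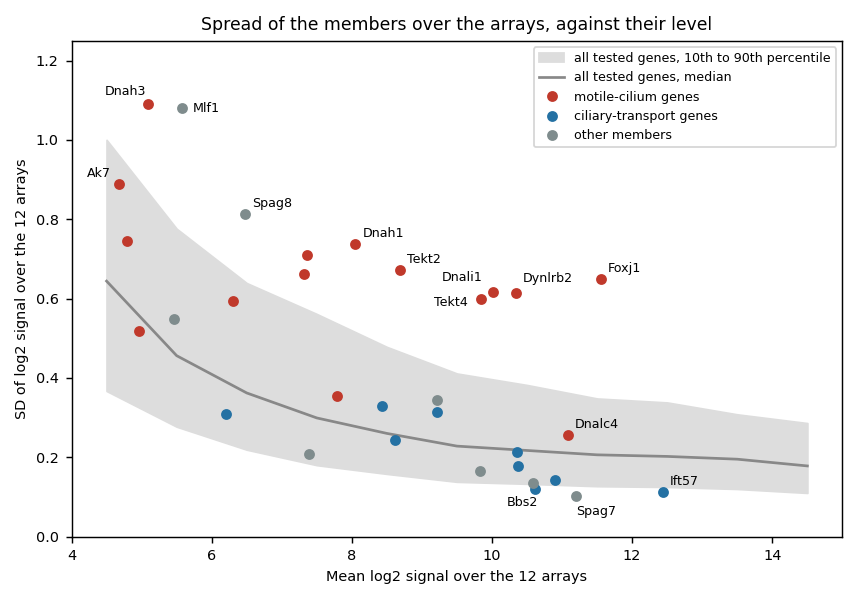
SD of the log2 signal over the 12 arrays against the mean log2 signal, 1 point per tested member (red motile-cilium, blue ciliary-transport, grey other). The grey band holds the 10th to 90th percentile of all tested genes at each level and the line their median. Foxj1 and most motile-cilium genes lie above the band. Ak7, Dnah7, Dnahc11, Tekt1, Tekt3 and Dnalc4 lie within it, and Ift57, Bbs2 and Spag7 lie at its lower edge or below.

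Foxj1, the forkhead factor that commits a cell to beating cilia, was bright on every array. Its log2 signals were 10.43, 12.60 and 11.54 on the 6-OHDA arrays 1 to 3, 12.45, 11.62 and 12.01 on the HFS arrays, 11.27, 10.74 and 11.10 on the DOPA arrays and 11.97, 11.22 and 11.69 on the DOPA/HFS arrays. Both the lowest and the highest value came from untreated lesioned rats, which were 4.51-fold apart, so the 6-OHDA group spanned the others. The SD within groups was 0.626 and that over all arrays 0.649, at the 92.4th percentile of all tested genes and the 97.4th of those with a mean log2 signal of at least 7.

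Several axonemal dyneins were likewise lowest on 6-OHDA replicate 1. Dnai2, an intermediate chain of the outer dynein arm, measured 6.11, 8.25 and 7.66 in 6-OHDA, 8.08, 7.49 and 7.80 in HFS, 6.88, 6.30 and 7.11 in DOPA and 7.76, 7.14 and 7.23 in DOPA/HFS. Dnah3, a heavy chain of the inner arm, had the largest SD of the members, 1.09, with 3.17, 5.26 and 6.30 in 6-OHDA, 5.77, 5.14 and 5.58 in HFS, 4.75, 4.26 and 3.45 in DOPA and 6.47 and 5.87 in DOPA/HFS. It was dim, well above background on 6 arrays, so part of its spread lies at the background level. In both genes 6-OHDA replicate 1 was the lowest of all, though in Dnah3 the highest 6-OHDA value was that of replicate 3, and the DOPA arrays lay below the HFS arrays.

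Dnali1, an inner-arm light intermediate chain, was measured by a pair of probes that gave the same picture. The brighter probe read 9.05, 10.91 and 9.93 in 6-OHDA and the dimmer 7.13, 9.19 and 7.97, so both put replicate 1 lowest and replicate 2 highest. The heavy chains were less uniform. The brighter probe of Dnah1 had an SD of 0.738 and a second probe, at a mean log2 signal of 5.64, an SD of 0.489 with HFS minus 6-OHDA at -0.26 instead of 0.55. Probes of Dnah7 and Dnah9 likewise differed in at least 1 sign.

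An exception among the dyneins was Dnalc4, the brightest of them and a light chain. It measured 11.09, 10.80 and 11.34 in 6-OHDA, 10.90, 11.18 and 11.38 in HFS, 11.04, 10.76 and 10.71 in DOPA and 11.40, 10.99 and 11.37 in DOPA/HFS. Its SD of 0.255 was at the 45.9th percentile of all tested genes, and 6-OHDA replicate 2, where Foxj1 was highest, had the lowest value of its group. Dnahc11 differed from the rest too, with 6.44 on DOPA/HFS replicate 3 and 4.45 to 5.24 on the other arrays.

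Tektins form filaments along the outer microtubules of beating cilia. Tekt4, the brightest, measured 8.72, 10.91 and 9.98 in 6-OHDA, 10.51, 10.08 and 9.92 in HFS, 9.62, 9.27 and 9.46 in DOPA and 10.16, 9.31 and 10.14 in DOPA/HFS. Tekt2 followed with 7.57, 9.49 and 8.71, then 9.70, 8.79 and 9.07, then 8.60, 7.60 and 8.40, and 9.04 and 8.5 in the same order of groups. In both, the 6-OHDA group covered or nearly covered the range of all arrays. Tekt1 had a smaller SD, 0.355, and Tekt3 0.593.

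Dynlrb2, a roadblock light chain of dynein, measured 9.34, 11.31 and 10.22 in 6-OHDA, 11.26, 10.54 and 10.70 in HFS, 10.07, 9.77 and 9.76 in DOPA and 10.91, 10.01 and 10.18 in DOPA/HFS. Ak7, an adenylate kinase of motile cilia, was dimmer, with 3.34, 4.77 and 5.48, then 5.59, 5.18 and 5.5, then 4.56, 3.53 and 3.23, and 5.69, 4.66 and 4.57. Each DOPA array lay below each HFS array in both genes. Ak7 was well above background on 0 DOPA arrays.

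Among the other members Mlf1, myeloid leukemia factor 1, also varied widely, with an SD of 1.08, and was well above background on 9 arrays. It measured 3.97, 6.06 and 5.94 in 6-OHDA, 7.79, 5.73 and 6.20 in HFS, 5.5, 3.93 and 4.51 in DOPA and 6.45, 5.32 and 5.6 in DOPA/HFS. Spag1, which helps to assemble dynein arms before they enter the cilium, measured 5.06, 5.27 and 5.75, then 6.10, 5.66 and 6.27, then 4.90, 4.57 and 4.95, and 6.20, 5.43 and 5.34. Its DOPA values lay below those of every other group. Spag7, which was bright, hardly varied, with 11.03 to 11.37 over the 12 arrays and an SD of 0.101.

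The transport genes varied less than most motile-cilium genes over the same animals. Their median SD, 0.213, was close to the 0.228 of all tested genes with a mean log2 signal of at least 7. Ift57, the brightest member of all and a part of the anterograde train, measured 12.37, 12.16 and 12.51 in 6-OHDA, 12.54, 12.52 and 12.43 in HFS, 12.51, 12.53 and 12.33 in DOPA and 12.46, 12.49 and 12.43 in DOPA/HFS. Bbs2, a core subunit of the Bardet-Biedl complex, measured 10.66, 10.61 and 10.75, then 10.59, 10.47 and 10.72, then 10.65, 10.44 and 10.63, and 10.86, 10.53 and 10.54. Their SDs, 0.112 and 0.119, were the lowest of the 9 transport genes and lay at the 2.73rd and 3.83rd percentile of all tested genes. The widest among the 9 transport genes was 0.328, in Bbs1, at the 63.4th percentile. Bbs1, Bbs4 and Ift88 differed by 2.18, 2.06 and 2.11-fold between the lowest and the highest array.

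**Figure D2:**
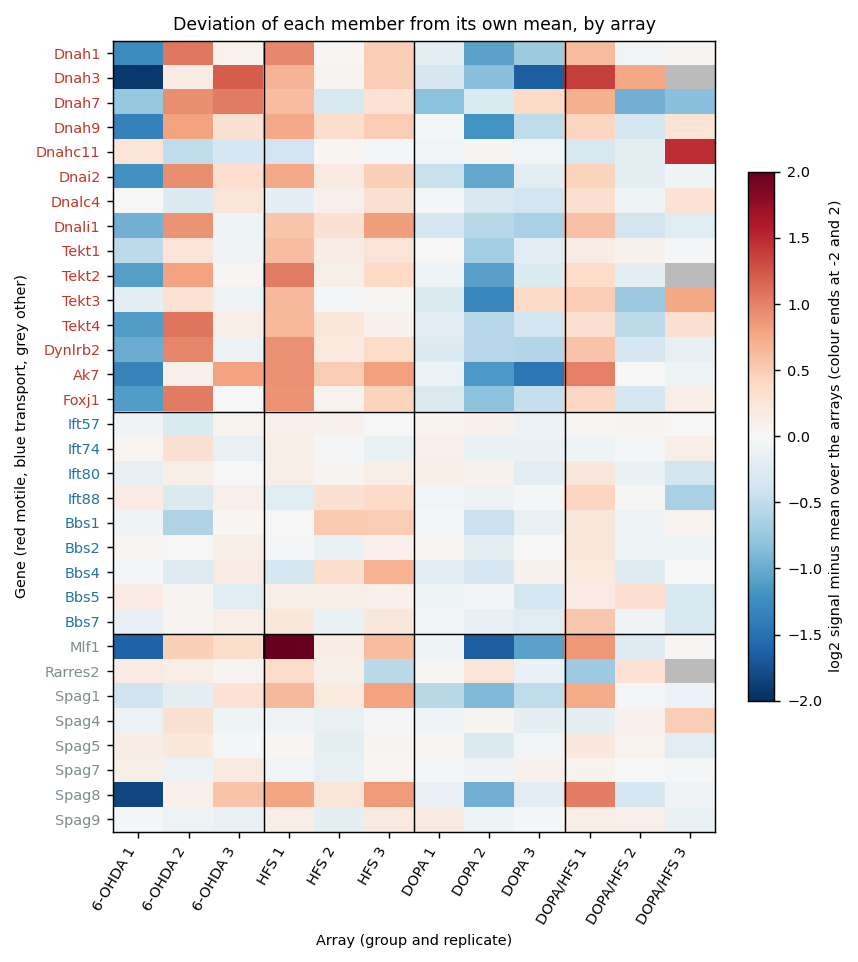
Log2 signal of the 32 tested members minus each gene's mean over the arrays, by array (columns, 4 groups of 3). Red is above and blue below the gene's mean, the colour ends at -2 and 2, and grey marks a value left out as an outlier spot. The upper block of 15 motile-cilium genes is mostly blue on 6-OHDA replicate 1 and on the DOPA arrays and mostly red on 6-OHDA replicate 2, the HFS arrays and DOPA/HFS replicate 1, while the middle block of 9 transport genes is pale.

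Set beside each gene's own mean, the median deviation of the motile-cilium genes was -1.11, 0.81 and 0.07 on the 6-OHDA arrays, 0.68, 0.11 and 0.39 on the HFS arrays, -0.22, -0.81 and -0.38 on the DOPA arrays and 0.44, -0.18 and 0.06 on the DOPA/HFS arrays. The transport genes stayed between -0.14 and 0.23 on every array. On 6-OHDA replicate 1, 13 of the 15 motile-cilium genes had the lowest value of the group, and on 6-OHDA replicate 2 the highest value was found for 10. In the treated groups, HFS replicate 1 was the highest of its group for 12 of 15, DOPA replicate 1 for 11 of 15 and DOPA/HFS replicate 1 for 11 of the 13 with a value on all 3 arrays. These counts describe genes measured on the same arrays, which are not independent of each other. Replicates of the same number shared a slide, so within a group animal and slide cannot be told apart.

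**Figure D3:**
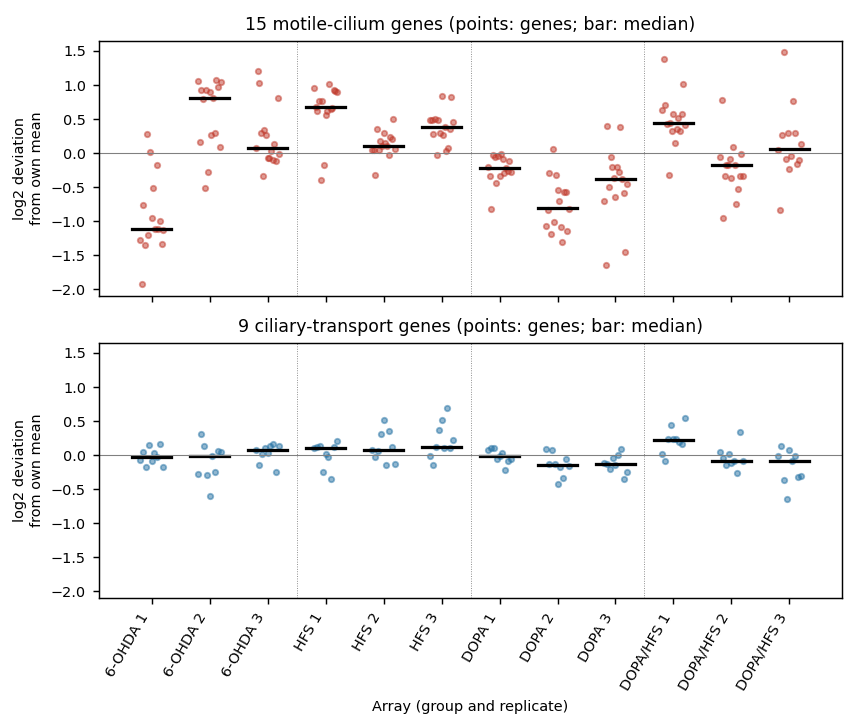
Log2 deviation from the gene's own mean for each of the 15 motile-cilium genes (upper panel, red) and 9 ciliary-transport genes (lower panel, blue), by array. Points are genes and the bar is their median. The motile-cilium median runs from -1.11 to 0.81, both in the 6-OHDA group, and the transport median from -0.14 to 0.23.

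Other cell types moved with these animals in part. The summed signal of 8 ependyma markers outside the members, 3 of which are themselves genes of motile cilia, ran from 24500 to 41100 in 6-OHDA, 33100 to 36900 in HFS, 25900 to 28500 in DOPA and 30400 to 33000 in DOPA/HFS. The sum of the 15 motile-cilium genes ran from 5890 to 16800, 10900 to 15500, 6370 to 8530 and 8170 to 13200 in the same groups. For both sums the lowest and highest arrays were 6-OHDA replicates 1 and 2, and each HFS array lay above each DOPA array. By gene the likeness was weaker. In HFS vs DOPA 7 of the 8 ependyma markers were above 0, with a median of 0.35, against 0.99 for the motile-cilium genes. Each HFS array lay above each DOPA array in 2 of these 8, against 7.19% of tested genes. Their median SD was 0.354, against 0.649. The DOPA/HFS replicate 3 sum lacks Dnah3 and Tekt2. The part of the ependyma in these values was not tested.

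The choroid plexus is another ciliated tissue of the ventricles. Its 10 markers summed to 3790 to 6490 in 6-OHDA, 10400 to 97500 in HFS, 3830 to 21000 in DOPA and 4350 to 5820 in DOPA/HFS, with 97500, 10400 and 57900 on HFS replicates 1 to 3 and 21000 on DOPA replicate 3. The sums on 6-OHDA replicates 1 and 2, the lowest and highest arrays in the motile-cilium sum, were 3880 and 3790, with median deviations of the choroid plexus markers of -1.47 and -0.74. Of the 10 markers, 6 to 7 were well above background on a 6-OHDA array, 9 to 10 on an HFS array, 5 to 9 on a DOPA array and 6 to 9 on a DOPA/HFS array. The part of choroid plexus in the HFS values was not tested. The sum of the projection neuron markers, 237000 to 322000, and that of 5 astrocyte markers, 49700 to 60900, overlapped between all groups. Other lists varied too. The sum of 4 cortex markers ran from 350 to 2330, with a median deviation of 0.97 and -0.6 on 6-OHDA replicates 1 and 2 and of -1.23, 0.45 and 1.18 on HFS replicates 1 to 3. The sum of 5 oligodendrocyte markers ran from 168000 to 278000, and in HFS vs DOPA 5 of the 5 were above 0, with a median of 0.29 and 0 at an unadjusted p under 0.05. The sum of 8 leptomeninges markers ran from 7690 to 13100 in HFS and from 5340 to 6860 in DOPA, without overlap. By gene, 4 of these 8 were above 0 and 4 below in HFS vs DOPA, with a median of 0, so the markers did not share this difference. The sum of 5 microglia markers ran from 8340 to 11300 over all arrays. The part of these cell types in the results was not tested.

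**Figure D4:**
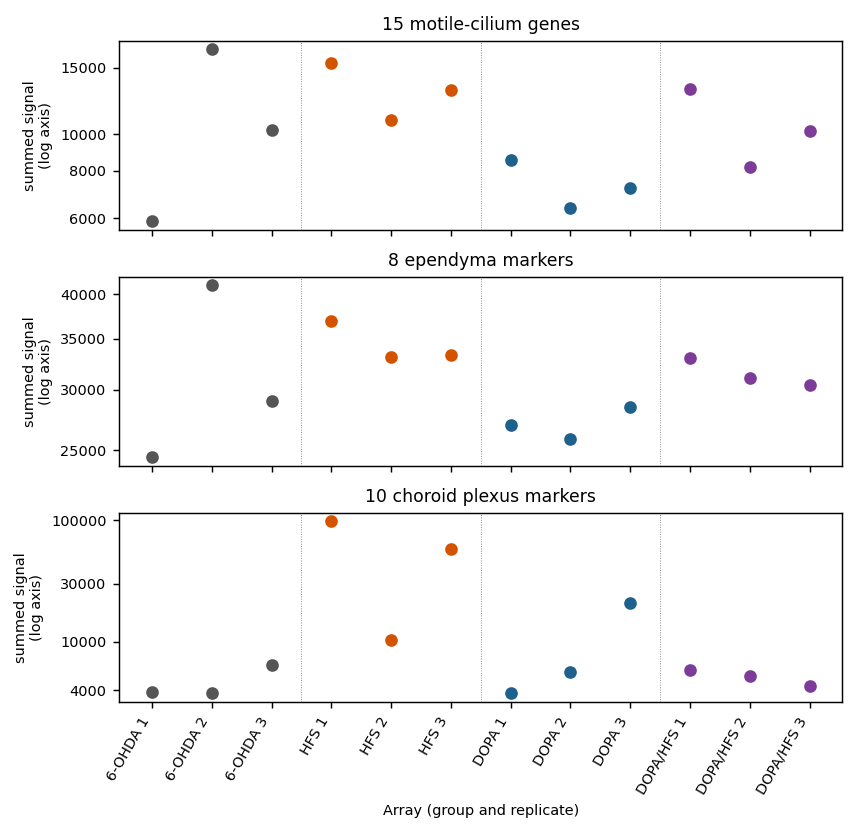
Summed normalized signal (log axes, arbitrary units) of the 15 motile-cilium genes, 8 ependyma markers and 10 choroid plexus markers on each array, coloured by group, 1 point per array. The motile-cilium and ependyma panels are lowest on 6-OHDA replicate 1 and highest on 6-OHDA replicate 2, whereas the choroid plexus panel is highest on HFS replicates 1 and 3, at 97500 and 57900.

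HFS vs 6-OHDA addressed what stimulation did to the lesioned striatum. The fitted difference was above 0 for 14 of 15 motile-cilium genes, with a median of 0.51 on the log2 scale, beside 0.12 for the transport genes and 0.01 for all tested genes. With limma on all 12 arrays, 0 of the 32 members were called, which required an adjusted p (Benjamini-Hochberg) under 0.1 and a fold above 1.2 or below 0.8, and so were 0% of all tested genes, and the lowest adjusted p of a member was 0.998. At an unadjusted p under 0.05 there were 2 members, against 2.35% of all tested genes. They were Bbs1, also of the Bardet-Biedl complex, at 0.56 ± 0.21 (standard error), and Spag1 at 0.65 ± 0.27. Bbs1 read 8.35, 7.83 and 8.46 in 6-OHDA and 8.44, 8.95 and 8.94 in HFS, so its groups overlapped. The count of 2 became 8 without 6-OHDA replicate 2, 4 without 6-OHDA replicate 3, 1 without 6-OHDA replicate 1 and 0 without HFS replicate 3, in the deposited table and with outlier spots kept. Of the members, 0 had all 3 HFS arrays above the 6-OHDA arrays and 0 all below, where 2.8% and 2.34% of tested genes did.

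The motile-cilium difference rested on single 6-OHDA arrays. Foxj1 differed by 0.51 ± 0.45 (exact two-sided permutation test, p = 0.6), and on the 3 slides the HFS array minus the 6-OHDA array was 2.02, -0.98 and 0.47. Without 6-OHDA replicate 1 the Foxj1 value became -0.04 and the motile-cilium median 0.07, without replicate 2 they became 1.05 and 0.90, and without HFS replicate 1 the median was 0.32. Leaving out the 3 arrays high in choroid plexus markers (HFS replicates 1 and 3 and DOPA replicate 3), a choice made after the data had been seen, gave 0.10 for Foxj1 and 0.21 for the median. HFS then has 1 array, assumed to vary like the other groups.

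DOPA vs 6-OHDA ran the other way and was not called either. The fitted difference was below 0 for 14 of 15 motile-cilium genes, with a median of -0.47, beside -0.10 for the transport genes and -0.01 for all tested genes. limma called 0 of 32 members, against 0.0049% of tested genes, the members' lowest adjusted p was 1, and 0 had an unadjusted p under 0.05, against 2.59%. Foxj1 differed by -0.48 ± 0.45 (exact permutation test, p = 0.6), with 0.84, -1.86 and -0.44 on the 3 slides. For 0 members were the DOPA arrays all above 6-OHDA (3.17% of tested genes) and for 1 member, Spag1, all below (3.12%), with a difference of -0.56 ± 0.27 and an adjusted p of 1 in limma. As 0 DOPA arrays had Spag1 well above background, its DOPA level is a bound only. Without 6-OHDA replicate 2 the motile-cilium median became -0.05, and without replicate 1 it became -1, with 12 of 32 members at an unadjusted p under 0.05 and 0 called.

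In DOPA/HFS vs 6-OHDA the motile-cilium genes lay near the untreated level. The median was 0.18, with 13 of 15 above 0, beside 0.02 for the transport genes. limma called 0 of 32 members (0% of tested genes, lowest adjusted p of a member 1), with 0 at an unadjusted p under 0.05 (2.75% of tested genes) and 0 members entirely above (2.05%) or below (3.02%) 6-OHDA. Foxj1 differed by 0.10 ± 0.45. Its sign and that of the median turned without 6-OHDA replicate 1, to -0.45 and -0.35, and without replicate 2 they were 0.64 and 0.52. Without DOPA/HFS replicate 1 the Foxj1 value was -0.07 and the median 0.01, and without DOPA/HFS replicate 2 the median was 0.31.

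Whether HFS acted differently with L-DOPA than without was tested as an interaction. It called 0 of 32 members, against 0% of tested genes, with 0 at an unadjusted p under 0.05 (1.98% of tested genes). The median was 0.12 for the motile-cilium genes and -0.14 for the transport genes. Over the 4 groups limma's moderated F called 0 members (0.0049% of tested genes) and gave 2, Spag1 and Ak7, an unadjusted p under 0.05, against 2.82% of tested genes. The comparisons with 6-OHDA share their control arrays.

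**Figure D5:**
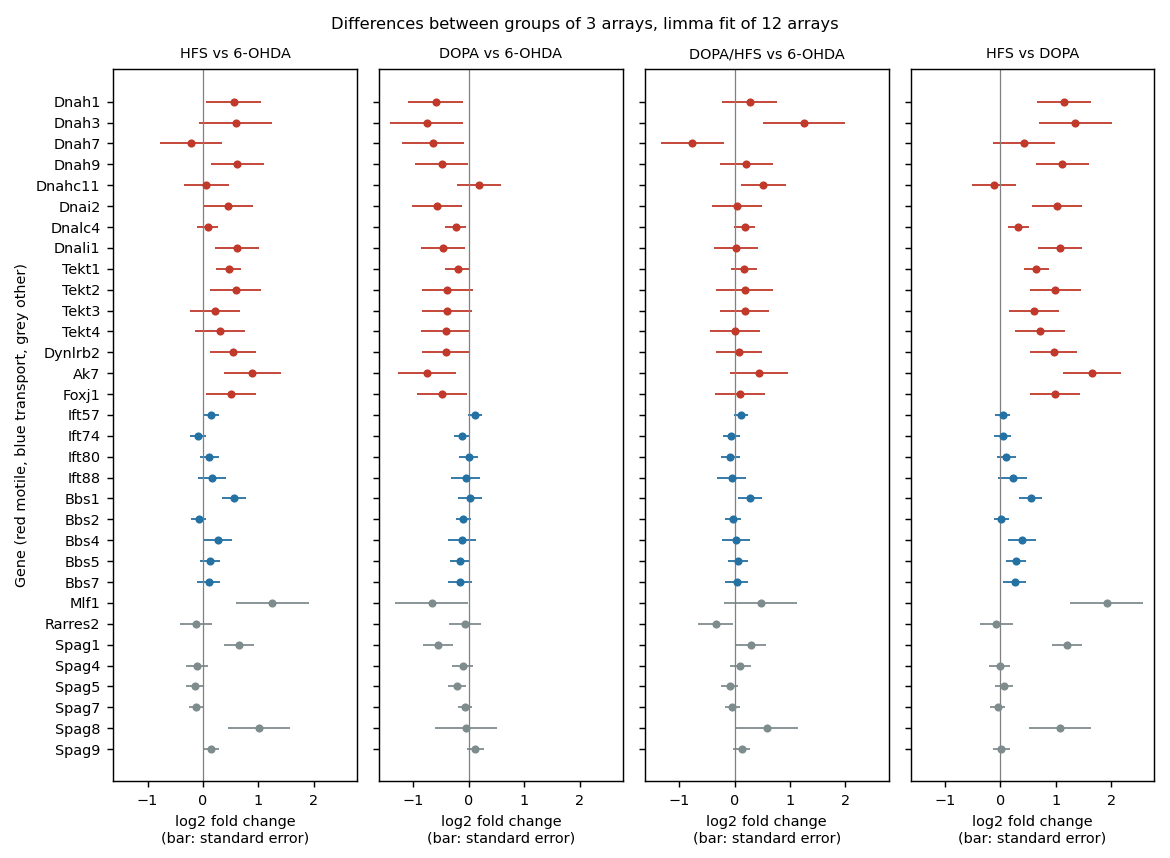
Log2 difference between groups for the 32 tested members (red motile-cilium, blue ciliary-transport, grey other), with the standard error as bars, from the limma fit of 12 arrays in 4 groups of 3. Most red points lie right of 0 for HFS vs 6-OHDA, left of 0 for DOPA vs 6-OHDA and furthest right for HFS vs DOPA, and most blue points lie near 0 in each panel.

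Setting the treated groups against each other, a step added after the data had been seen, gave the widest differences. In HFS vs DOPA the motile-cilium median was 0.99, with 14 of 15 above 0, beside 0.22 for the transport genes and 0.01 for all tested genes. In 16 of the 32 members each HFS array lay above each DOPA array, against 7.19% of tested genes. These were 11 of 15 motile-cilium genes, 2 of 9 transport genes and 3 of 8 others. Among them Ak7, Dnah3 and Spag1 were well above background on 0 DOPA arrays, so their DOPA values lie at the background level. They passed the filter through arrays of the other groups, which favours such a separation. Members measured on the same arrays are not independent of each other. The reverse held for 0 members, against 6.62% of tested genes. For a single gene this is an exact permutation p of 0.1, the smallest that 3 arrays against 3 allow.

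None of these differences passed the adjustment over all genes. In HFS vs DOPA limma called 0 of 32 members, against 0.0049% of tested genes. An unadjusted p under 0.05 was reached by 10 members, against 4.6% of tested genes. They were Dnah1, Dnah9, Dnai2, Dnali1, Dynlrb2, Tekt1 and Ak7 of the motile-cilium genes, and Bbs1, Mlf1 and Spag1. Spag1 had the lowest adjusted p of a member, 0.57 in limma, at a log2 difference of 1.2 ± 0.27. Mlf1 differed by 1.92 ± 0.66, Ak7 by 1.65 ± 0.52, and Dnah3 by 1.35 ± 0.66 with a p of 0.0688 in the limma fit. In DOPA, Spag1, Ak7 and Dnah3 were well above background on 0 arrays and Mlf1 on 1, so the sizes depend on the background correction, and with normexp they were 0.80 for Mlf1, 0.44 for Ak7 and 0.25 for Dnah3. Foxj1 differed by 0.99 ± 0.45, with 1.18, 0.88 and 0.91 on the 3 slides, while Ift57 differed by 0.04 ± 0.13 and Bbs2 by 0.02 ± 0.14.

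The motile-cilium median of HFS vs DOPA stayed between 0.75 and 1.18 as single arrays were left out. The count of 10 was less steady. It was 5 without HFS replicate 1, 4 without HFS replicate 3, 3 without DOPA replicate 2 and 15 without 6-OHDA replicate 1, whose value enters only the shared estimate of spread. Without the 3 arrays high in choroid plexus markers the median was 0.64, Foxj1 0.62, and the count 0.

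For most motile-cilium genes the DOPA/HFS mean lay between those of DOPA and HFS. Against DOPA the motile-cilium median was 0.57 and the transport median 0.07. limma called 0 of 32 members (0% of tested genes). An unadjusted p under 0.05 was found for 3 members (3.79% of tested genes), Ak7 at a log2 difference of 1.2 ± 0.52, Dnah3 at 2.02 ± 0.74 over 2 DOPA/HFS arrays, and Spag1 at 0.85 ± 0.27, each with 0 DOPA arrays well above background. The count of 3 became 6 without 6-OHDA replicate 1 or DOPA/HFS replicate 2, 5 without 6-OHDA replicate 2, and 1 without DOPA replicate 3, without DOPA/HFS replicate 1 or in the deposited table. In 5 members, 4 of them motile-cilium genes, each DOPA/HFS array lay above each DOPA array, against 4.24% of tested genes. Ak7, Dnah3 and Spag1 were among these 5. Against HFS the motile-cilium median was -0.40, with 0 of 32 members called (0% of tested genes) and 0 at an unadjusted p under 0.05 (2.44%).

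The order of the group means was the same in most motile-cilium genes. HFS was the highest group and DOPA the lowest in 11 of 15, or 73.3%, against 4 of 9 transport genes and 12.2% of all tested genes. These genes were measured on the same arrays and are not independent of each other. The place of 6-OHDA in the order can turn on single arrays. Without 6-OHDA replicate 1, Foxj1 in HFS vs 6-OHDA was -0.04, and without replicate 2 it was 0.06 in DOPA vs 6-OHDA. For Foxj1 the means were 12.03 ± 0.414 (SD, n = 3) in HFS, 11.63 ± 0.380 in DOPA/HFS, 11.52 ± 1.09 in 6-OHDA and 11.04 ± 0.269 in DOPA. Neighbours in this order differed by less than the SD of the wider group. No pair of groups was called for Foxj1.

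Genes of the same families that the files list under older names give a further reading. Of 15 such genes 13 were tested, 5 of them motile: Rsph1 (listed as Tsga2) and Rsph10b (RGD1311893), both of the radial spokes, Spef2 (Kpl2) of the central pair, and the dynein intermediate chains Dnai1 (LOC500442) and Dnai4 (Wdr78). HFS was the highest group and DOPA the lowest in 5 of these 5, against 12.2% of all tested genes. These 5 were measured on the same arrays as the members, so they are not independent of them. Their median SD was 0.673, and their median deviation was -1.22, 0.38 and 0.23 on the 6-OHDA arrays and 1, 0.11 and 0.32 on the HFS arrays. In HFS vs DOPA their median difference was 0.92. In limma 3 of 5 had an unadjusted p under 0.05, against 4.6% of tested genes, and the lowest adjusted p was 0.963. The 7 transport genes among them, such as Ift81 (Cdv1) and Ift172 (Slb), had a median SD of 0.165 and a median difference of 0.06.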

How the data were processed

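Striatal RNA of 12 rats (1 single-colour Agilent array per animal) was compared in 4 groups of 3, assigned by the labels. Intensity values were read from the scanner output that the authors deposited (Agilent Feature Extraction 9.1 per the labels), in which background had been subtracted and arrays had not been scaled to each other. The authors also deposited a table of log2 values, quantile normalized between arrays, used here as an alternative. Of 45018 spots per array, 1639 controls and outlier spots were left out. Intensities were taken to log2, quantile normalized and averaged per probe. Probes well above background on a share of 0.4 of the arrays were kept, with the brightest per gene. limma 3.58.1 under R 4.3.3 (helper packages jsonlite 2.0.0 and data.table, version 1.17.8) was fitted with eBayes to all arrays and tested on simulated data. Of the probes, 10735 were named through the RefSeq table of GRCr8 and the others by the files.

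The members and lists were chosen with earlier results of these data known. Genes described on every array were to be Foxj1, called genes, those separated from 6-OHDA with an unadjusted p under 0.05, the 3 with the largest SD and the brightest of each role. Dnai2, Dnali1, Tekt2, Bbs1 and Spag1 were chosen after their values were seen. Alternatives were scaling to the 75th percentile, normexp (offset 50), the deposited table, other filters on dim probes, the mean of all probes, outlier spots kept, the replicate number as a block, an adjusted p under 0.05 and leaving out each array. The number of arrays limits the precision. Replicates were separate animals.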

Additional observations from a re-analysis of the deposited data

Results flagged for a closer look

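Of the members that did not pass the filter, 2 had signal well above background on some arrays but on 0 of the 3 lesion-only arrays. Dnah6, a dynein heavy chain, was well above background on 4 arrays, the 3 HFS arrays and 1 DOPA/HFS array, with log2 signals of 5.76, 4.48 and 5.85 in HFS against 2.54, 4.43 and 5.11 in 6-OHDA. Dnah8 was so on 1 array, in HFS. Neither was tested.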

How the results depend on the processing

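The count of 0 called members held in every comparison and in the F test under every alternative run. The replicate number was also the number of the slide. Over 18360 genes, same-numbered deviations correlated at -0.287 to 0.476, over 0.1 in 10 of 18 pairs. As not every pair deviated together, the numbers were not taken to pair the animals. The motile-cilium genes did share an order in the treated groups. In HFS, DOPA and DOPA/HFS their median deviation was highest on replicate 1 and lowest on replicate 2. In 6-OHDA it was lowest on replicate 1 and highest on replicate 2. The part of the slide in this was not tested. With the replicate number as a block 0 members were called in every comparison, and members of HFS vs DOPA at an unadjusted p under 0.05 went from 10 to 6. That count was also 6 with outlier spots kept and 6 without a filter on dim probes. The median SD of the motile-cilium genes was 0.41 with normexp and 0.461 in the deposited table, against 0.19 and 0.292 for the transport genes. The transport median of DOPA/HFS vs 6-OHDA moved from 0.02 to -0.12 in the deposited table and to -0.16 with outlier spots kept, and that of HFS vs DOPA to 0 without the 3 arrays high in choroid plexus markers. The motile-cilium median of DOPA/HFS vs 6-OHDA was -0.02 in the deposited table. In that comparison the median of all tested genes moved from -0.01 to -0.12 in the deposited table and to -0.14 with outlier spots kept, so these moves are about the size of the shift of all genes.

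Dynlrb2 in DOPA/HFS vs 6-OHDA was -0.10 in the deposited table and -0.07 with outlier spots kept, beside the same shift of all genes. Other log2 differences changed sign near 0, and the cause was not tested. Ift57 in HFS vs DOPA was -0.04 with scaling to the 75th percentile and -0.01 with normexp and with the deposited table, and Bbs2 was -0.07 without the 3 arrays. As single arrays were left out, HFS vs 6-OHDA ran from -0.04 to 1.05 for Foxj1, -0.28 to 1.28 for Dnah3, -0.06 to 0.21 for Dnalc4 and -0.28 to 0.82 for Tekt4. DOPA vs 6-OHDA ran from -1.03 to 0.06 for Foxj1, -0.90 to 0.09 for Dynlrb2 and -1 to 0.10 for Tekt4. DOPA/HFS vs 6-OHDA ran from -0.45 to 0.64 for Foxj1, -0.21 to 0.84 for Mlf1, -0.15 to 0.92 for Ak7, -0.14 to 0.02 for Bbs2, -0.40 to 0.59 for Dynlrb2 and -0.13 to 0.01 for Spag7. HFS vs DOPA ran from -0.04 to 0.08 for Bbs2 and -0.02 to 0.08 for Ift57. Dim genes such as Ak7 and Dnah3 are limited by their signal over background.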

Other observations

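Genes of motile cilia outside the member families varied over the same animals. Of 26 such genes on the arrays 20 were tested, and their median SD was 0.495, against 0.204 for 28 tested genes of primary cilia. The median deviation of the 20 was -0.61, 0.39 and 0.08 on the 6-OHDA arrays, 0.69, 0.11 and 0.17 on the HFS arrays, -0.09, -0.63 and -0.12 on the DOPA arrays and 0.23, -0.16 and -0.04 on the DOPA/HFS arrays. In HFS vs DOPA each HFS array lay above each DOPA array for 10 of the 20, against 7.19% of tested genes, while limma gave 6 of them a p under 0.05 before adjustment, against 4.6%, 0 calls and a lowest adjusted p of 0.984. Those with the largest differences included Drc12 at 1.24, Odad3 (listed as RGD1310048), which docks outer dynein arms, at 1.09, and Iqcg, of the nexin-dynein link, at 1.05. In the same comparison 0 of the 28 primary-cilium genes had an unadjusted p under 0.05, and their median difference was 0.04. The widest spread among them was that of Dync2h1 (listed as Dnch2), the motor of retrograde transport, with an SD of 0.807.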
